A study of Mus musculus with 6 samples.

Results

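The genes described here are the members of the Max network, a family of transcription factors that compete for a shared partner: the activators Myc and Mycn, the partners Max and Mlx, and the repressors Mnt, Mxd1, Mxd3, Mxd4, Mxi1 and Mga. They were taken by gene name and make up 10 of the 34745 genes in the deposited table, each with 1 row, and all 10 had enough counts to be tested. The group was chosen by a measured value, the lower Mnt count in tumours under a high cholesterol diet, so fold changes, intervals and counts of calls between the diets describe the members and are not tests that support the choice. By the labels, RNA was sequenced from 6 tumours of C57BL/6J mice. All are labelled as raised by injecting B16F10 cells, a mouse melanoma line, under the skin of the right flank. The mice of 3 tumours ate a normal diet (ND 1 to ND 3), and those of the other 3 a high cholesterol diet (HCD 1 to HCD 3). The labels give no animal age, no diet composition or duration, and no statement of how replicates were separated, so the spread between libraries may in part be technical.

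The libraries held 20351637 to 26228074 counts. The label of the cells was checked against 10 melanocyte markers: Tyr, Dct, Mlana and Oca2 had 0 counts in every library, and the 10 together summed to 4.24 to 11.1 CPM per library (CPM are counts scaled to the library total). The 9 hepatocyte markers set beside them, among them Alb and Hnf4a, summed to 6783 to 8944 CPM. The tumours are therefore called tumours labelled as B16F10. Skeletal muscle markers set ND 2 and HCD 1 apart: 7 genes of the contractile apparatus summed to 1694 and 1882 CPM there, and to 16.7 to 207 CPM in the other 4 libraries. Without both libraries, the log2 fold changes between the diets described below were -0.34 for Mycn, 0.32 for Mxd3, 0.10 for Mga and -0.17 for Mxi1. Those of Mnt, Mxd1 and Mxd4 are given with the genes.

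Members of this network share a basic helix-loop-helix leucine zipper fold and bind DNA as pairs. Myc and Mycn pair with Max and activate genes of growth, ribosome production and metabolism, while Mnt, the Mxd proteins and Mga pair with the same Max and repress, mostly by bringing in the Sin3 and histone deacetylase complex or a Polycomb complex. Mlx is a second hub, which pairs with the glucose-sensing Mondo proteins and with some of the repressors. All of these pairs recognise the E-box, whose preferred form reads CACGTG.

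The E-box itself occurs in front of several of the genes, so that the sequences are shown for the 4 members that carry one. Promoters of 300 bases (RefSeq, build GRCm38.p6, 250 bases before the gene start and 50 after it) were matched for 9 of the 10 members by symbol, and Myc had no entry. CACGTG, which reads the same on both strands, was present in the promoters of Max, Mnt, Mlx and Mxd4, 4 of 9 members, and in 8.09% of the 27025 genes with a promoter. It was not found in the windows of Mycn, Mxd1, Mxd3, Mxi1 (3 starts) and Mga. Each line gives the E-box in capitals with 20 bases on either side, 5′ to 3′ on the strand of the gene.
Max: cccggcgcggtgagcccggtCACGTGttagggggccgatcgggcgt
Mnt: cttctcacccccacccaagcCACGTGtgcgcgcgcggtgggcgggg
Mlx: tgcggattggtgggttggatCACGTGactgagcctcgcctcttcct
Mxd4: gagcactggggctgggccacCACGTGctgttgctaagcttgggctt
The windows lie at chr12:76962226-76962271 (minus strand) for Max, chr11:74830781-74830826 (plus) for Mnt, chr11:101087230-101087275 (plus) for Mlx and chr5:34187904-34187949 (minus) for Mxd4. Counted from the gene start of the RefSeq table, which is not that of the GENCODE coordinates given with the genes below, the E-box begins 3 bases before it in Max, 40 in Mlx, 123 in Mnt and 219 in Mxd4.

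For Mnt, the member with the clearest separation of the diets, all 250 bases before the gene start are shown (chr11:74830674-74830923, plus strand, E-box in capitals).
Mnt upstream: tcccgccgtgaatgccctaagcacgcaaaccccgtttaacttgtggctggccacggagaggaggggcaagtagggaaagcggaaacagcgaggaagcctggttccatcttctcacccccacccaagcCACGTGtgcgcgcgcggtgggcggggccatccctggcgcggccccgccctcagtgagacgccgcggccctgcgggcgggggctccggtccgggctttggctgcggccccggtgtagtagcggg
A match to these letters describes the sequence and does not show that a factor was bound.

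Across the network, Myc had the highest transcript level per length and Mycn the lowest. The level was computed as CPM per kilobase of the union of a gene's annotated exons. Myc, on chromosome 15 (ENSMUSG00000022346, 61985391 to 61990374), had 62.6 ± 6.35 CPM per kilobase (SD, n = 6). Mycn, the family member best known from the developing nervous system and neuroblastoma (ENSMUSG00000037169, chromosome 12, 12936093 to 12941914), had 1.13 ± 0.201 CPM per kilobase. Myc thus made up 97.7% to 98.7% of the summed level of both genes in each library.

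Max, the partner that Myc needs (ENSMUSG00000059436, chromosome 12, 76937269 to 76962201), came after Myc at 19.1 ± 0.764 CPM per kilobase. Mlx (ENSMUSG00000017801, chromosome 11, 101087277 to 101092207) followed at 15.9 ± 1.15. The ranges of Myc, Max and Mlx over the 6 libraries did not overlap with one another or with any other member.

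Among the repressors, Mxi1 (ENSMUSG00000025025, chromosome 19, 53310518 to 53375810) and Mnt (ENSMUSG00000000282, chromosome 11, 74830920 to 74845725) averaged 9.07 ± 2.03 and 8.97 ± 2.46 CPM per kilobase. Mxi1 was above Mnt in 2 of 6 libraries, so the order of these neighbours is not set by the data. Mga, a very large protein that also carries a T-box DNA binding domain (ENSMUSG00000033943, chromosome 2, 119897228 to 119969581), had 6.20 ± 0.317 CPM per kilobase. Mxd3 (ENSMUSG00000021485, chromosome 13, 55325168 to 55329823), a repressor linked to dividing cells, had 5.76 ± 0.629, Mxd4 (ENSMUSG00000037235, chromosome 5, 34173883 to 34187720) 5.15 ± 0.694 and Mxd1 (ENSMUSG00000001156, chromosome 6, 86647042 to 86669161) 4.92 ± 1.87. The ranges of each of these neighbours overlapped, from Mnt down to Mxd1, and only Mycn lay below all of them in every library. This order kept 5 of its 10 ranks in ND libraries alone, 10 in HCD libraries alone and 6 to 10 without 1 library.

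The deposited FPKM values (counts scaled by gene length and library total) give another order, with Max at 34.3 ± 1.74 FPKM above Myc at 17.1 ± 1.75 (SD, n = 6). The gene length behind these values, recovered from count and FPKM, was 9933 bases for Myc, 1.99 times the span of the gene on the chromosome and far above its exon union of 2717 bases. For Max it was 2005 bases, 0.557 times its exon union of 3598 bases. For Mnt, Mxd1, Mxd4, Mga and Mlx the recovered length equalled the summed length of all distinct annotated exons in GENCODE M21, a sum that counts overlapping exons of different transcripts more than once. This equality held for 68.5% of 15487 tested genes, but not for Myc, Mycn, Max, Mxd3 and Mxi1. The ratio of Myc to Max ran from 0.383 to 0.577 over the libraries by deposited FPKM, from 2.51 to 3.79 by exon union and from 1.58 to 2.37 by the longest transcript. The rank of a member in the network therefore depends on the gene length used, whereas comparisons of 1 gene between libraries do not.

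**Figure D1:**
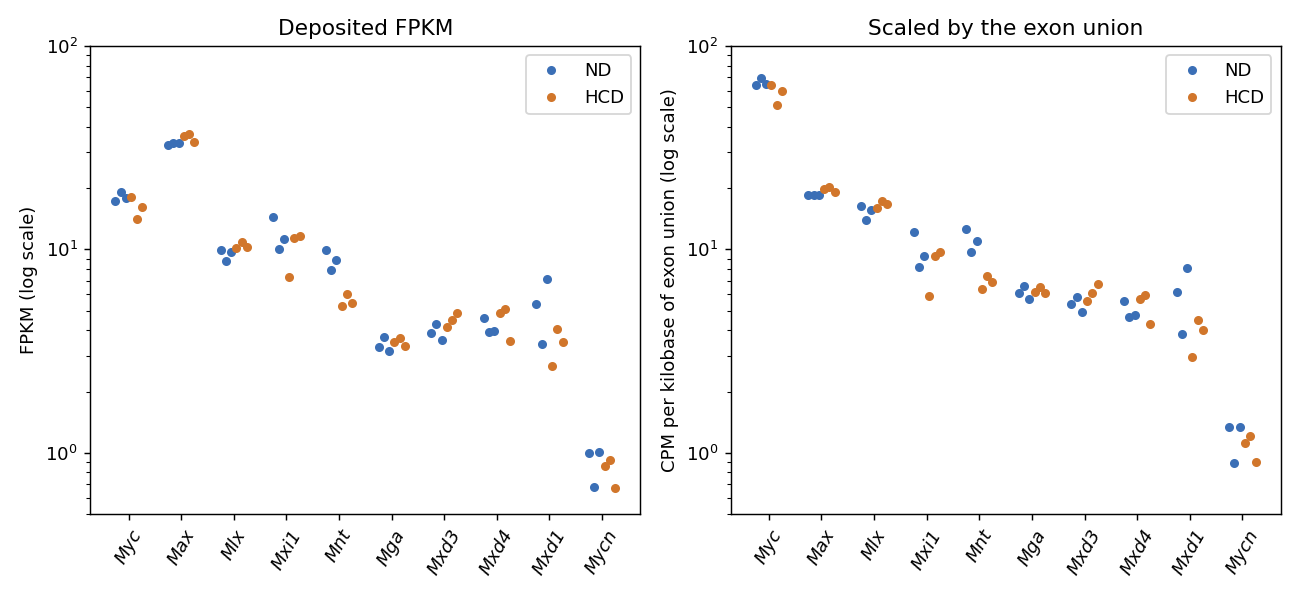
Level of each member in each library (points, blue ND, orange HCD) as deposited FPKM (left) and as CPM per kilobase of exon union (right), both on log axes, in 1 order of genes. Max lies above Myc by FPKM (34.3 against 17.1) and below it by exon union (19.1 against 62.6), and Mycn is lowest in both.

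Between the diets, Mnt and Mxd1 had the largest fold changes of the network, close to each other in size, and the repressors differed in sign. Mnt and Mxd1 lay lower in HCD tumours by log2 fold changes of -0.68 and -0.66, Mxi1 by -0.25, while Mxd3, Mxd4 and Mga had values of 0.19, 0.10 and 0.03. Myc and Mycn had values of -0.18 and -0.15, and Max and Mlx 0.09 and 0.12. So 5 members had positive and 5 negative fold changes, with a median of -0.06 beside 0.01 over all 15539 tested genes. The edgeR quasi-likelihood test called 0 of the 10 members at an adjusted p under 0.05, where 0% of all tested genes were called, and 1 member, Mnt, had an unadjusted p under 0.05, where 5.3% of tested genes did. In that count 0 members were higher in HCD tumours, beside 1.81% of genes, and 1 was lower, beside 3.48%. The Wald test of DESeq2 called 1 member, Mnt, where 0.0515% of genes were called. Since Mnt led to the choice of the group, nothing is read from these counts.

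**Figure D2:**
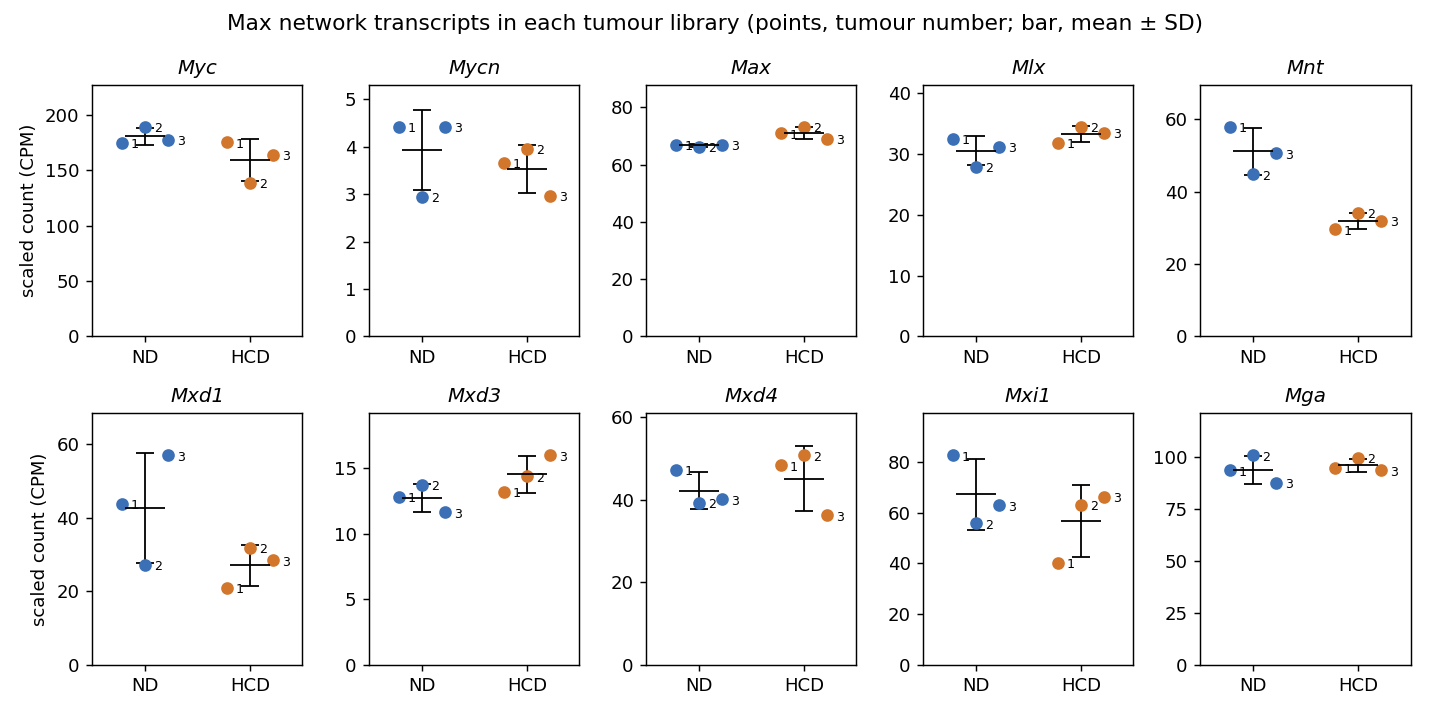
Scaled counts (CPM, linear axes from 0) of the 10 members in each library, with ND in blue, HCD in orange, the tumour number beside each point, and bars for mean ± SD of 3 libraries. The diets separate for Mnt (44.8 to 57.9 against 29.65 to 34.2 CPM) and, by a small margin, for Max (66.2 to 66.9 against 69.0 to 73.2 CPM), and overlap for the other 8 members.

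Mnt encodes the most widely expressed repressor of the network, an antagonist of Myc at shared binding sites, and its upstream sequence is shown above. It had 57.9, 44.8 and 50.6 CPM in ND 1, ND 2 and ND 3 and 29.65, 34.2 and 31.9 CPM in HCD 1, HCD 2 and HCD 3. All 3 HCD libraries lay below all 3 ND libraries; ND 2 and HCD 2 lay closest to each other. The ND mean was 51.1 ± 6.56 CPM and the HCD mean 31.9 ± 2.28 CPM (SD, 3 libraries each). On the log2 scale the fold change was -0.68 ± 0.11 SE, with a 95% interval from -0.95 to -0.41. HCD tumours thus held 62.5% of the ND level. The interval is that of 1 gene, not adjusted for the number of genes tested, and the adjusted p of the edgeR test was 0.839. The counts behind these values ran from 615 to 1297, so that counting error alone is at most 4.03% of a value. Without 1 library the fold change ran from -0.76 (without ND 2) to -0.58 (without ND 1), and it was -0.71 without the muscle-rich libraries ND 2 and HCD 1. No annotated exon of another gene overlaps those of Mnt.

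Mxd1, a repressor first known from myeloid and other cells that stop dividing and differentiate, had the widest spread of the network. Its levels were 43.7, 27.1 and 57.0 CPM in ND 1 to ND 3 and 20.8, 31.7 and 28.4 CPM in HCD 1 to HCD 3. ND 1 and ND 3 were high, ND 2 fell among the HCD libraries, and the highest library was 2.74 times the lowest. The log2 fold change of -0.66 ± 0.28 SE had a 95% interval of -1.32 to 0.01 and ranged from -0.90 without ND 2 to -0.39 without ND 3. Without the muscle-rich libraries ND 2 and HCD 1 the fold change was -0.74.

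Several marker sets varied with these genes, neutrophil markers among them. All 7 markers (S100a8, S100a9, Csf3r, Cxcr2, Retnlg, Ly6g and Mmp8) had counts, 6 of the 7 had negative fold changes, and their summed level was 78.1 to 146 CPM in ND and 63.6 to 77.8 CPM in HCD libraries. Over the 6 libraries, the mean centred log2 level of the markers had a Pearson r of 0.86 with Mxd1 and 0.82 with Mnt. With the other members r ran from -0.79 (Mga) to 0.59 (Mycn), and was -0.71 with Max and -0.70 with Mxd3. These points share their libraries, and r is given as a description. ND 2 and HCD 2 had nearly equal marker sums, 78.07 and 77.79 CPM. Their mean centred log2 levels were less alike, -0.22 and -0.56. In these 2 libraries Mxd1 had 27.1 and 31.7 CPM and Mnt 44.8 and 34.2 CPM. Other cell types varied as well: 10 of 10 T cell markers (median 0.84), 7 of 7 endothelial markers (0.44) and 7 of 9 macrophage markers (0.40) had positive fold changes. Their sums overlapped between the diets, at 20.8 to 90.1 against 63.9 to 156 CPM, 176 to 222 against 199 to 408 CPM and 480.3 to 982 against 713 to 1562 CPM. Positive fold changes were also held by 6 of 7 B and plasma cell markers (median 1.23) and 4 of 4 tested adipocyte markers (0.56). The sums of these 2 sets overlapped too, at 29.9 to 131 against 23.0 to 156 CPM and 30.9 to 38.6 against 24.6 to 61.3 CPM. Fibroblast markers had 3 positive and 5 negative fold changes, and hepatocyte markers 3 positive and 6 negative. Mnt had an r of -0.68 with the T cell markers and -0.46 with the macrophage markers. The part of any of these cell types in the difference of either gene was not tested. In RNA of whole tumours, fewer cells of a type and less RNA per cell cannot be told apart.

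Mxi1, a close relative of Mxd1 and a gene known to respond to low oxygen, had 82.7, 55.8 and 62.9 CPM in ND 1 to ND 3 and 40.3, 63.1 and 66.3 CPM in HCD 1 to HCD 3. ND 1 was the highest and HCD 1 the lowest library, and the other 4 lay close together in both diets. The log2 fold change was -0.25 ± 0.22 SE (95% interval -0.77 to 0.27), and it was -0.05 without HCD 1. A set of 10 hypoxia-induced genes, among them Car9, Vegfa and Pgk1, was chosen after the values of Mxi1 had been seen. All 10 had counts, 9 of the 10 had negative fold changes (median -0.25, and -0.05 without HCD 1), and their sum ran from 2412 to 2983 CPM in ND and from 1745 to 2690 CPM in HCD libraries, with the lowest sum in HCD 1 and the highest in ND 1. The Pearson r of Mxi1 with the mean centred log2 level of these genes was 0.95 over the 6 libraries, and with that of the skeletal muscle markers it was -0.84. Mxd1 and Mnt had r values of 0.82 and 0.66 with the hypoxia-induced genes, and of -0.74 and -0.47 with the skeletal muscle markers. The part of either marker set in the values of these genes was not tested.

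**Figure D3:**
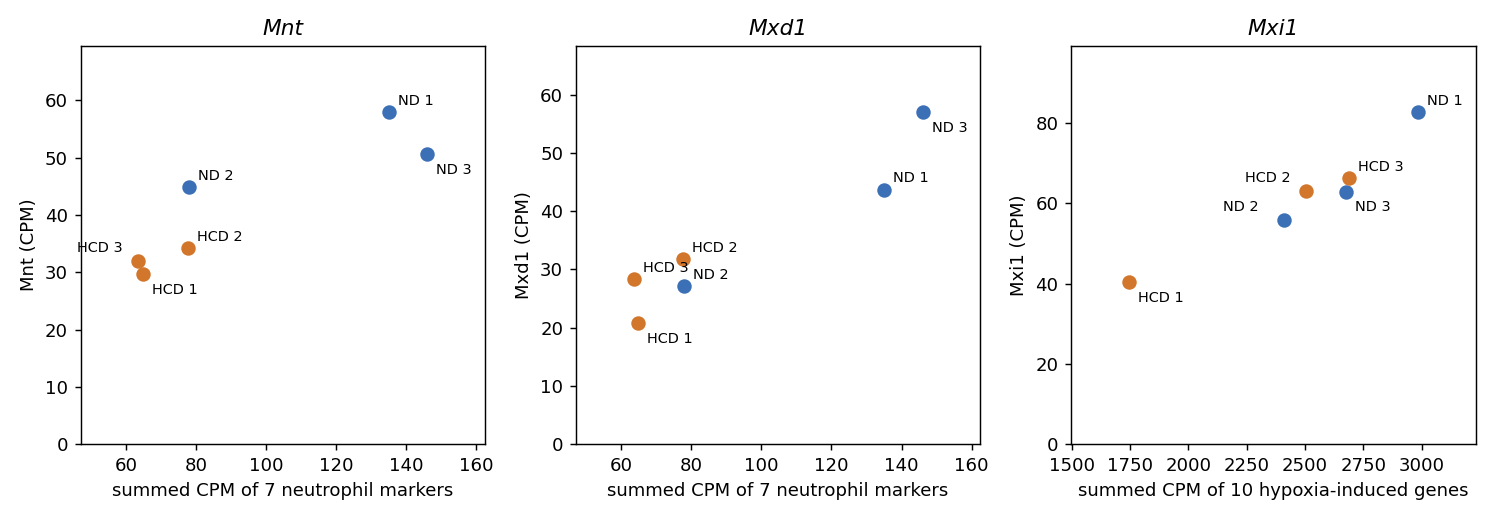
CPM of Mnt and Mxd1 against the summed CPM of 7 neutrophil markers, and of Mxi1 against the summed CPM of 10 hypoxia-induced genes, 1 point per library (blue ND, orange HCD). ND 1 and ND 3 hold the highest neutrophil sums and the highest Mnt and Mxd1, ND 2 and HCD 2 sit at nearly equal sums, and HCD 1 is lowest in both Mxi1 and the hypoxia sum.

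Mxd3 and Mxd4 overlapped between the diets. Mxd3 had 12.8, 13.8 and 11.7 CPM in ND 1 to ND 3 and 13.2, 14.4 and 16.0 CPM in HCD 1 to HCD 3, a log2 fold change of 0.19 ± 0.12 SE (95% interval -0.10 to 0.48), and it was 0.11 without HCD 3. HCD 3 was the highest library and HCD 1 lay between the ND libraries. Mxd4, a repressor found mainly in resting and differentiated cells, had 47.3, 39.3 and 40.1 CPM in ND 1 to ND 3 and 48.3, 50.8 and 36.2 CPM in HCD 1 to HCD 3. HCD 3 was here the lowest of all 6. Its log2 fold change was 0.10 ± 0.15 SE (95% interval -0.25 to 0.44), with a value of 0.01 without HCD 2 and of -0.00054 without ND 2 and HCD 1. Its level had an r of 0.85 with 8 fibroblast markers over the 6 libraries. These markers summed to 2768 to 4027 CPM in ND and 2555 to 3728 CPM in HCD libraries, and their part in the values of Mxd4 was not tested. Exons of Mxd3, Mxd4, Mxi1 and Mlx overlap those of Prelid1, Gm42846, Gm10197 and Psmc3ip on the opposite strand, and the strand setting of the counting was not given in the sources used here, so reads of these pairs could have been mixed.

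Mga, the scaffold of a Polycomb complex that silences germ-line genes, was among the steadiest members. It had 93.7, 101 and 87.6 CPM in ND 1 to ND 3 and 94.98, 99.8 and 93.8 CPM in HCD 1 to HCD 3. The HCD libraries lay inside the range of the ND libraries, and the log2 fold change was 0.03 ± 0.07 SE (95% interval -0.14 to 0.20), turning to -0.02 without ND 3.

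Of the activators, Myc had 175, 189 and 177 CPM in ND 1 to ND 3 and 175, 139 and 164 CPM in HCD 1 to HCD 3. HCD 1 lay between ND 1 and ND 3, and HCD 2 was the lowest. The ND mean was 181 ± 7.61 CPM and the HCD mean 159 ± 18.7 CPM (SD, 3 libraries each), with a log2 fold change of -0.18 ± 0.09 SE (95% interval -0.40 to 0.04), and it was -0.09 without HCD 2. Mycn had 61 to 99 counts per library, 2.95 to 4.42 CPM in ND and 2.97 to 3.96 CPM in HCD libraries. Its ranges overlapped almost fully (log2 fold change -0.15 ± 0.25 SE, 95% interval -0.74 to 0.43), and counting error alone reached 12.8% at its lowest count. The Mycn fold change was -0.32 without ND 2 and -0.04 without HCD 3.

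Max varied least, with a highest library 1.11 times the lowest. It had 66.9, 66.2 and 66.9 CPM in ND 1 to ND 3 and 71.0, 73.2 and 69.0 CPM in HCD 1 to HCD 3. Every HCD library exceeded every ND library, with a log2 fold change of 0.09 ± 0.06 SE whose 95% interval, -0.05 to 0.23, includes 0. The diets thus did not overlap for 2 of the 10 members, Mnt and Max, where 11.1% of all tested genes did not overlap. Of all tested genes 4.75% were higher in this way, as Max was, and 6.36% lower, as Mnt was. Mnt led to the choice of the group, so nothing is read from this count of members. Mlx had 32.5, 27.8 and 31.2 CPM in ND 1 to ND 3 and 31.8, 34.5 and 33.5 CPM in HCD 1 to HCD 3, a log2 fold change of 0.12 ± 0.09 SE (95% interval -0.09 to 0.34), and it was 0.07 without ND 2. ND 2 was its lowest library and the diets overlapped through ND 1 and HCD 1.

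**Figure D4:**
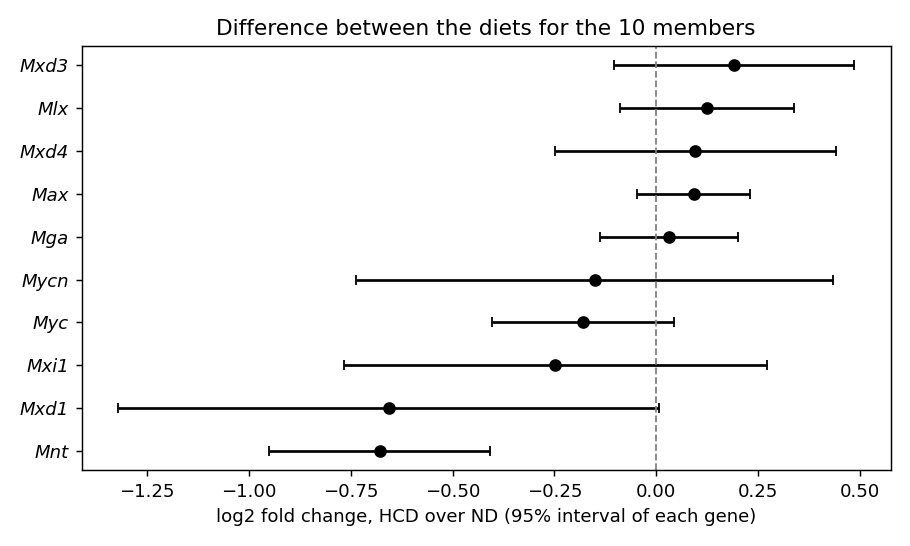
Log2 fold change of HCD over ND for the 10 members (points) with the 95% interval of each gene from the edgeR fit (bars) and a dashed line at 0. Points run from -0.68 for Mnt, the gene whose value led to the choice of the group, and -0.66 for Mxd1 to 0.19 for Mxd3, and the intervals of Mycn and Mxd1 are wide.

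Set against each other per kilobase of exon union, Myc stood at 5.15, 7.19 and 5.97 times Mnt in ND 1 to ND 3 and at 10.07, 6.91 and 8.74 times Mnt in HCD 1 to HCD 3, with ND 2 above HCD 2. Mnt made up 28.9% to 30.1% of the summed level of Mnt, Mxd1, Mxd3, Mxd4 and Mxi1 in ND and 21.8% to 24.2% in HCD libraries. Myc relative to that sum was 1.54 to 2.17 in ND and 1.54 to 2.43 in HCD libraries, and so overlapped. These ratios contain Mnt and describe RNA, not protein.

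Within the network, no pair of genes other than Myc with Max and with Mlx had a Pearson r beyond 0.8 in either direction over the 6 libraries (-0.84 and -0.82), and Mnt and Mxd1 had 0.79. Of 9398 genes averaging 10 CPM or more, those whose log2 level was most like that of Mnt were F11r (r = 0.99), Tada1 (0.99), Peak1 (0.98), Gigyf1 (0.98) and Gorab (0.98). For Myc they were Egln2 (0.99), Spire1 (0.98), Tcf20 (0.98), Cystm1 (0.97) and Sirt6 (0.97). Many genes were nearly as alike: 40 had an r over 0.95 with Mnt and 22 with Myc.

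Of the genes around the network edgeR called none, as it called 0% of all tested genes. List medians lay between -0.10 and 0.07, while single genes reached -0.84 (Mycl) and 0.99 (Thrsp, at 0 to 24 counts per library and named after its value was seen). Of 9 tested transcription factors that join the network or read the same E-box, 7 had positive and 2 negative fold changes, with a median of 0.06 (0.02 to 0.10 without 1 library). Mycl, a relative of Myc, had 5.40, 4.58 and 3.06 CPM in ND 1 to ND 3 and 2.85, 2.51 and 1.95 CPM in HCD 1 to HCD 3. Its diets did not overlap, and its log2 fold change was -0.84 ± 0.29 SE at 40 to 121 counts per library. Mycl was named for the smallest p of its list, and 6.36% of all tested genes lay lower in this way. Among named genes of the lists, the diets also did not overlap for Usf2, Sap30, Sin3a, Sin3b, Kat5, Huwe1, Pim2, Noc4l, Rrs1, Cdkn2b and Pklr. By list, 1 transcription factor of 9 lay higher in HCD libraries and 1 lower, as did 3 and 2 of 19 Sin3 genes. For ribosome biogenesis they were 3 and 1 of 25, for Myc coactivators 0 and 1 of 16. Genes acting on Myc protein had 0 and 2 of 17, and Myc-repressed genes 0 and 1 of 12. Mlx and Mondo targets had 0 and 1 of 9, and the Mga complex and growth lists 0. Over all tested genes, 11.1% did not overlap in either direction. For Usf2, an E-box activator, the log2 fold change was 0.17 ± 0.10 SE, and for Bhlhe40, a circadian and stress repressor with the most counts per library of the list, it was -0.14 ± 0.19 SE. Mycs had 0 counts in every library.

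The 19 genes of the Sin3 corepressor, which Mnt and the Mxd proteins recruit, had 11 positive and 8 negative fold changes and a median of 0.03 (0.01 without HCD 3 to 0.05 without HCD 2). Sap30, a subunit that links Sin3 to histone deacetylases, had 27.6 ± 1.76 CPM under ND and 34.0 ± 3.95 CPM under HCD (SD, 3 libraries each), a log2 fold change of 0.30 ± 0.11 SE. Sin3a and Sin3b themselves had -0.06 and 0.08. The 16 Myc coactivators had a median of -0.03 (-0.004 without HCD 2) with 10 of 16 negative, and their values ran from -0.13 (Kat5) to 0.19 (Smarcb1, named after its value was seen). Trrap, the scaffold of Myc-bound acetyltransferases, had 362 ± 17.9 against 349 ± 12.1 CPM, and the acetyltransferase genes Kat5 and Kat2a had log2 fold changes of -0.13 ± 0.08 SE and 0.12 ± 0.08 SE.

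For the Polycomb complex around Mga and Max, 7 of 10 genes were positive with a median of 0.06, which was -0.02 without HCD 3. Its DNA-binding subunit E2f6 had 0.23 ± 0.13 SE, its reader L3mbtl2 0.21 ± 0.12 SE, and Tfdp1, its most abundant gene, 0.06 ± 0.08 SE. Genes that act on Myc protein had a median of 0.04 (0.01 without ND 3) with 10 of 17 positive. Aurka, a kinase that shields Mycn from degradation, had 60.2 ± 2.91 against 70.1 ± 7.12 CPM (0.22 ± 0.09 SE), the ubiquitin ligase gene Huwe1 -0.10 ± 0.06 SE and the kinase gene Pim2 -0.26 ± 0.14 SE.

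Textbook targets of Myc had values in both directions, with Tfrc farthest from 0. Of 25 ribosome biogenesis genes, 22 had positive and 3 negative fold changes, where 8237 of all 15539 tested genes were positive. The list had a median of 0.07, beside 0.01 over all genes. That median was 0.03 when HCD 3 was left out and 0.14 when HCD 2 was. Ncl, which encodes nucleolin, had 1539 ± 56.1 CPM under ND and 1654 ± 133 CPM under HCD (0.10 ± 0.08 SE), the ribosome assembly gene Noc4l 29.2 ± 0.308 against 34.5 ± 2.48 CPM (0.24 ± 0.08 SE) and Rrs1 57.2 ± 4.58 against 64.3 ± 3.06 CPM (0.17 ± 0.08 SE). The mean centred level of the list was lowest in ND 1, at -0.10 on the log2 scale, and in HCD 2, at -0.08, and highest in HCD 3, at 0.11, so the diets overlapped. Genes that vary together in this way are not separate observations. Of 31 growth and metabolism genes, 19 were positive, with a median of 0.04, which was 0.10 without ND 2 or without HCD 2 and 0.01 without HCD 3. Tfrc, the transferrin receptor gene, had 250, 112 and 182 CPM in ND 1 to ND 3 and 116, 79.8 and 114 CPM in HCD 1 to HCD 3, a log2 fold change of -0.81 ± 0.29 SE with ND 2 below HCD 1. Pkm, a glycolytic enzyme gene, had -0.06 ± 0.11 SE and the phosphatase gene Cdc25a 0.13 ± 0.07 SE.

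Genes that Myc is known to repress had 6 positive and 6 negative fold changes and a median of 0.04, which was negative, -0.11 to -0.07, without any 1 of ND 1, ND 2, HCD 1 and HCD 2, and -0.03 without ND 2 and HCD 1 together. The cell cycle inhibitor gene Cdkn2b had 50.9 ± 0.934 against 40.5 ± 8.97 CPM (-0.33 ± 0.16 SE), Ndrg1, which is also induced by hypoxia, 274 ± 59.3 against 210 ± 57.6 CPM (-0.39 ± 0.23 SE) and Cebpa 0.25 ± 0.12 SE. Targets of Mlx and the Mondo proteins had 3 of 9 positive and a median of -0.10, which was 0.04 without ND 2, 0.01 without HCD 2, -0.04 without ND 1, -0.21 without HCD 1 and -0.22 without ND 2 and HCD 1 together. Pklr, a pyruvate kinase gene, had 16.0, 16.0 and 15.3 CPM in ND 1 to ND 3 and 12.6, 9.42 and 13.9 CPM in HCD 1 to HCD 3. Its diets did not overlap (log2 fold change -0.40 ± 0.16 SE). Pklr was named for the smallest p of its list, and 6.36% of all tested genes lay lower in this way. Txnip, the best known Mondo target, had -0.20 ± 0.12 SE, and the fatty acid synthase gene Fasn 0.07 ± 0.10 SE. Mlxip, a Mondo partner of Mlx, had 68.4 CPM under ND and 72.9 CPM under HCD.

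**Figure D5:**
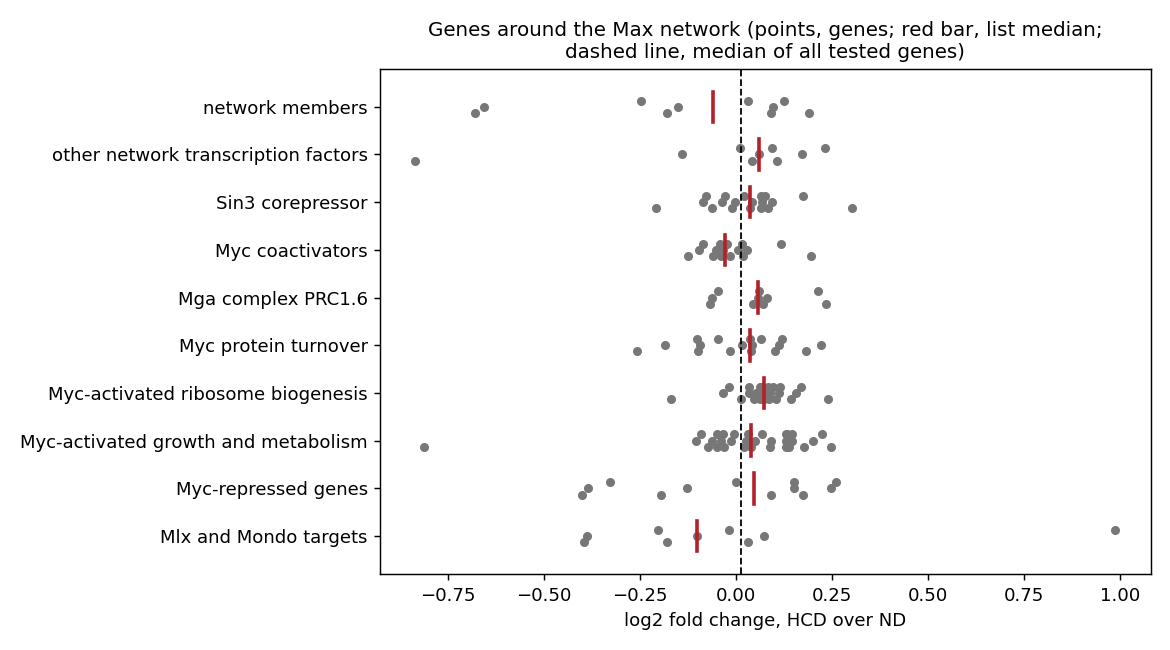
Log2 fold change of HCD over ND for each tested gene (points) of the network and of 9 lists around it, with the list median (red bar) and the median of all tested genes (dashed line, 0.01). List medians lie between -0.10 and 0.07, while Mnt, Mxd1, Mycl and Tfrc stand to the left of the other genes and Thrsp, at 0.99, to the right.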

How the data were processed

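The authors deposited raw counts per gene and FPKM values for 34745 genes in 6 libraries. Per the submitters' processing notes, the build was mm10 and the tools CASAVA 1.8, TopHat2 2.0.9, HTSeq and edgeR, with no role given. Per the labels' protocols, libraries were paired-end TruSeq RNA libraries. The deposited counts were tested with the quasi-likelihood test of edgeR 4.0.16 (legacy form, R 4.3.3) on diet alone, with TMM factors, the default filter (minimum count 10, minimum total 15; 15539 genes left) and Benjamini-Hochberg adjustment over all genes. CPM use TMM-scaled totals. A standard error is the size of the fold change divided by the root of F. Alternatives were DESeq2 1.42.0, limma 3.58.1 (voom, and log2(FPKM + 1) above 1 FPKM in at least 3 libraries), other scalings and filters, a replicate block and leaving out libraries. In simulated counts with the spread of each gene in these libraries, the test recovered 76 of 100 genes changed 2-fold and 98 of 100 changed 4-fold. There were 15296 genes and 14 false calls. Both sets of changes were placed together, only in genes above a minimum level, and each gene was drawn independently. Variation that genes share between tumours, as in the muscle markers, was therefore absent. The recovery thus does not give the power of the test in the real libraries.

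Named genes were the 10 members, up to 3 of each list (the highest level and the 2 smallest p) and the 5 genes most like Mnt and Myc. Mlxip, Sin3a, Sin3b, Smarcb1, Mycs and Thrsp were added after their values were seen. 1 gene that the rule names is not reported here. Members and lists were chosen with earlier results of these data known. Exon unions were taken from GENCODE M21 (GRCm38).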

Additional observations from a re-analysis of the deposited data

How the results depend on the processing

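The deposited FPKM order of the 10 members was set against other choices. It was the same at 10 ranks in ND libraries alone, at 4 in HCD libraries alone, and at 2 with exon unions and 2 with longest transcripts, both chosen after seeing the data. EdgeR called 0 genes higher and 0 lower in HCD tumours. DESeq2 called 1 higher and 7 lower, Mnt among them (log2 fold change -0.68, Wald test adjusted p = 0.00471). The edgeR and limma alternatives called Mnt in no setting. Its adjusted p was 0.839 in the main edgeR test and 0.861 in limma-voom. Without 1 library, edgeR called 0 higher and 0 to 2 lower. The 2 genes were called without ND 2, and neither is a member. At an unadjusted p under 0.05 edgeR had 282 genes higher and 541 lower. The fold changes of 8 members kept their sign in every alternative run for them, Mycn being below the filter of the FPKM test. The exceptions were Mga, which ran from -0.01942 to 0.08946 without 1 library and was negative without ND 3 alone, and Mxd4, at -0.00054 without ND 2 and HCD 1, an alternative chosen after seeing the data. The replicate numbers did not pair the libraries: deviations of same-numbered libraries correlated at -0.31, 0.14 and 0.08. With the replicate block 0 genes were called, as without it. Mycn, at 61 to 99 counts, is the member that depth limits most.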
